A study of Mus musculus with 4 samples.

Results

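The genes described here are 8 death ligand, death receptor and BCL-2 family genes (Fasl, Fas, Tnfsf10, Bcl2, Bcl2l11, Mcl1, Bcl2a1b and Bcl2a1d), taken by their symbols from the 32285 genes counted in intratumoral T cells. They were followed in Cd4, Cd8 and Foxp3 cells, each split at 20 Ccl5 UMIs per cell, and compared between sh-NC and sh-B7-H3 (1) tumors. Both groups grew subcutaneously from 105K cells, a Tsc2-deficient mouse kidney tumor line, in wild-type C57BL/6J mice injected at 6 weeks of age. The tumor cells of the control group carried a non-targeting hairpin (sh-NC), and those of the other group carried 1 hairpin against Cd276, the gene of the checkpoint protein B7-H3 (sh-B7-H3 (1)). The hairpins act in the tumor cells and not in the T cells, so the T cells themselves were unmodified in both groups. Sorted CD3+ cells were profiled for 3′ RNA and antibody-derived surface tags in the same droplets (CITE-seq), with 2 libraries in each group. Per the design text each group is 1 pool of 80 tumors run on a pair of lanes, whereas a legend of the study names 2 independent samples a group, so every p-value measures the spread between these lanes, which may be technical.

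Fas ligand (Fasl) and TRAIL (Tnfsf10) are ligands of the TNF family that T cells place on their surface or release, and binding to their receptors, of which Fas is the receptor for Fas ligand, can set off caspase-dependent death in the target cell. BCL-2 family proteins decide at the mitochondrion whether a cell dies. Bcl2, Mcl1 and the A1 proteins (Bcl2a1b, Bcl2a1d) hold death back, whereas Bim, the product of Bcl2l11, is a BH3-only protein that opposes them. In T cells, Bim is known for the contraction of activated clones, Bcl2 and Mcl1 for survival of resting and memory cells, and A1 for induction by antigen receptor signals. Ccl5 encodes a chemokine that effector and memory T cells hold in quantity, and here its count only divides the cells and is not itself a result.

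The libraries held 7030 to 12112 called cells with median depths of 7243 to 9168 RNA UMIs, and 2014 to 4599 cells per library passed the filters and received a lineage. A Cd4 cell had at least 1 Cd4 UMI and fewer than 3 Cd8a plus Cd8b1 UMIs, a Cd8 cell had at least 3 Cd8a plus Cd8b1 UMIs and no Cd4 UMI, and a Foxp3 cell was a Cd4 cell with at least 2 Foxp3 UMIs. The regulatory T cell genes Il2ra, Ikzf2 and Ctla4, which the calls did not use, summed to 1631 to 1989 UMIs per 1000000 (CPM) in Foxp3 cells with Ccl5 under 20, against 62.9 to 69.4 CPM in the corresponding Cd4 cells of sh-NC and 137 to 151 CPM in those of sh-B7-H3 (1). Nkg7, Gzmk, Gzmb, Prf1 and Ifng summed to 6397 to 7031 CPM in Cd4 and 5122 to 5863 CPM in Cd8 cells with at least 20 Ccl5 UMIs, against 65.4 to 406 and 618 to 695 CPM below that limit. Barcodes shared by 2 libraries numbered 17 to 35 per pair, 0.242 to 0.427% of the smaller library. Cd276 had 9 to 11 UMIs per library in all called cells, which says nothing about the knockdown because the hairpin is in the tumor cells.

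Bcl2a1b and Bcl2a1d lie on mouse chromosome 9 at 89199209 to 89207827 (plus strand) and 88723285 to 88731914 (minus strand) in GRCm38, and both are protein-coding copies of 1 ancestral A1 gene. Over 817 aligned bases their GENCODE vM21 transcripts differed at 7 bases (99.1% identity), and over the last 300 bases, where 3′ reads fall, at 2 of 298 aligned bases. Another copy, Bcl2a1a, differed from Bcl2a1d at 2 of those last 300 bases. A read that matches 2 copies equally well cannot be given to either, so the division of counts between Bcl2a1b and Bcl2a1d is uncertain, and a change in either may include the other. The bases upstream of the annotated transcript starts, from the RefSeq promoter windows in GRCm38, are shown because the near identity extends there. Matches to TGANTCA, a loose AP-1 pattern that takes any base at its center, are in capitals.
Bcl2a1b, chr9:89199023-89199208, plus strand: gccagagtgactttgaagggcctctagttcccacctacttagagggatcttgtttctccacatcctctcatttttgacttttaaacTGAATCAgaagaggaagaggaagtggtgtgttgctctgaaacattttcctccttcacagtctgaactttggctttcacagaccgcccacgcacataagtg
Bcl2a1d, chr9:88731915-88732100, minus strand: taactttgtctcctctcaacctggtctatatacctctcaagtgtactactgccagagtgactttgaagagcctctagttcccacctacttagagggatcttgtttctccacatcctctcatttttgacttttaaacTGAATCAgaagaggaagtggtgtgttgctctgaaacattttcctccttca
The shared stretch differed at 1 of 136 aligned bases, apart from a short gap, and the pattern is matched once in each, as TGAATCA. Searched on both strands, TGANTCA is found in 7.93% of 27025 RefSeq promoter windows of 300 bases. Fas was the other member with a match to it. The NF-kB consensus (4.35% of windows) matched no member, and TTCNNNGAA, the interferon-gamma activated site (8.47% of windows), matched Fas alone, which describes letters in these windows and says nothing about binding.

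The remaining members are single protein-coding genes, Fasl at chromosome 1, 161780689 to 161788495 (minus strand), Bcl2 at chromosome 1, 106538178 to 106714274 (minus strand), Bcl2l11 at chromosome 2, 128126038 to 128162547 (plus strand), Tnfsf10 and Mcl1 at chromosome 3, 27317028 to 27342427 and 95658788 to 95663176 (both plus strand), and Fas at chromosome 19, 34290666 to 34327772 (plus strand). The gene identifiers of all 8 members in the files matched those of this annotation. Levels are given as CPM of the RNA UMIs summed over a class of cells in a library. They are compared for the same gene between classes, and not between genes.

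The largest contrast among the 8 genes lay between the Ccl5 classes within a lineage. Cd4 and Cd8 cells with at least 20 Ccl5 UMIs held far more Fasl and Tnfsf10, more A1, Bcl2l11 and Bcl2, and less Fas than cells of the same lineage and library below that limit. In an edgeR quasi-likelihood test with the library as a block, 6 members were higher and 1 was lower in Cd4 cells, and 7 were higher and 1 was lower in Cd8 cells. Of all genes tested, 52.8% passed in Cd4 and 55.1% in Cd8 cells, so that passing was common in this comparison and the sizes carry more than the counts. The median log2 difference of the members was 1.71 in Cd4 and 1.83 in Cd8 cells, beside a median of 0.00 and 0.01 over all genes tested. Since the members were chosen with earlier results of these data known, these medians only describe them.

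**Figure D1:**
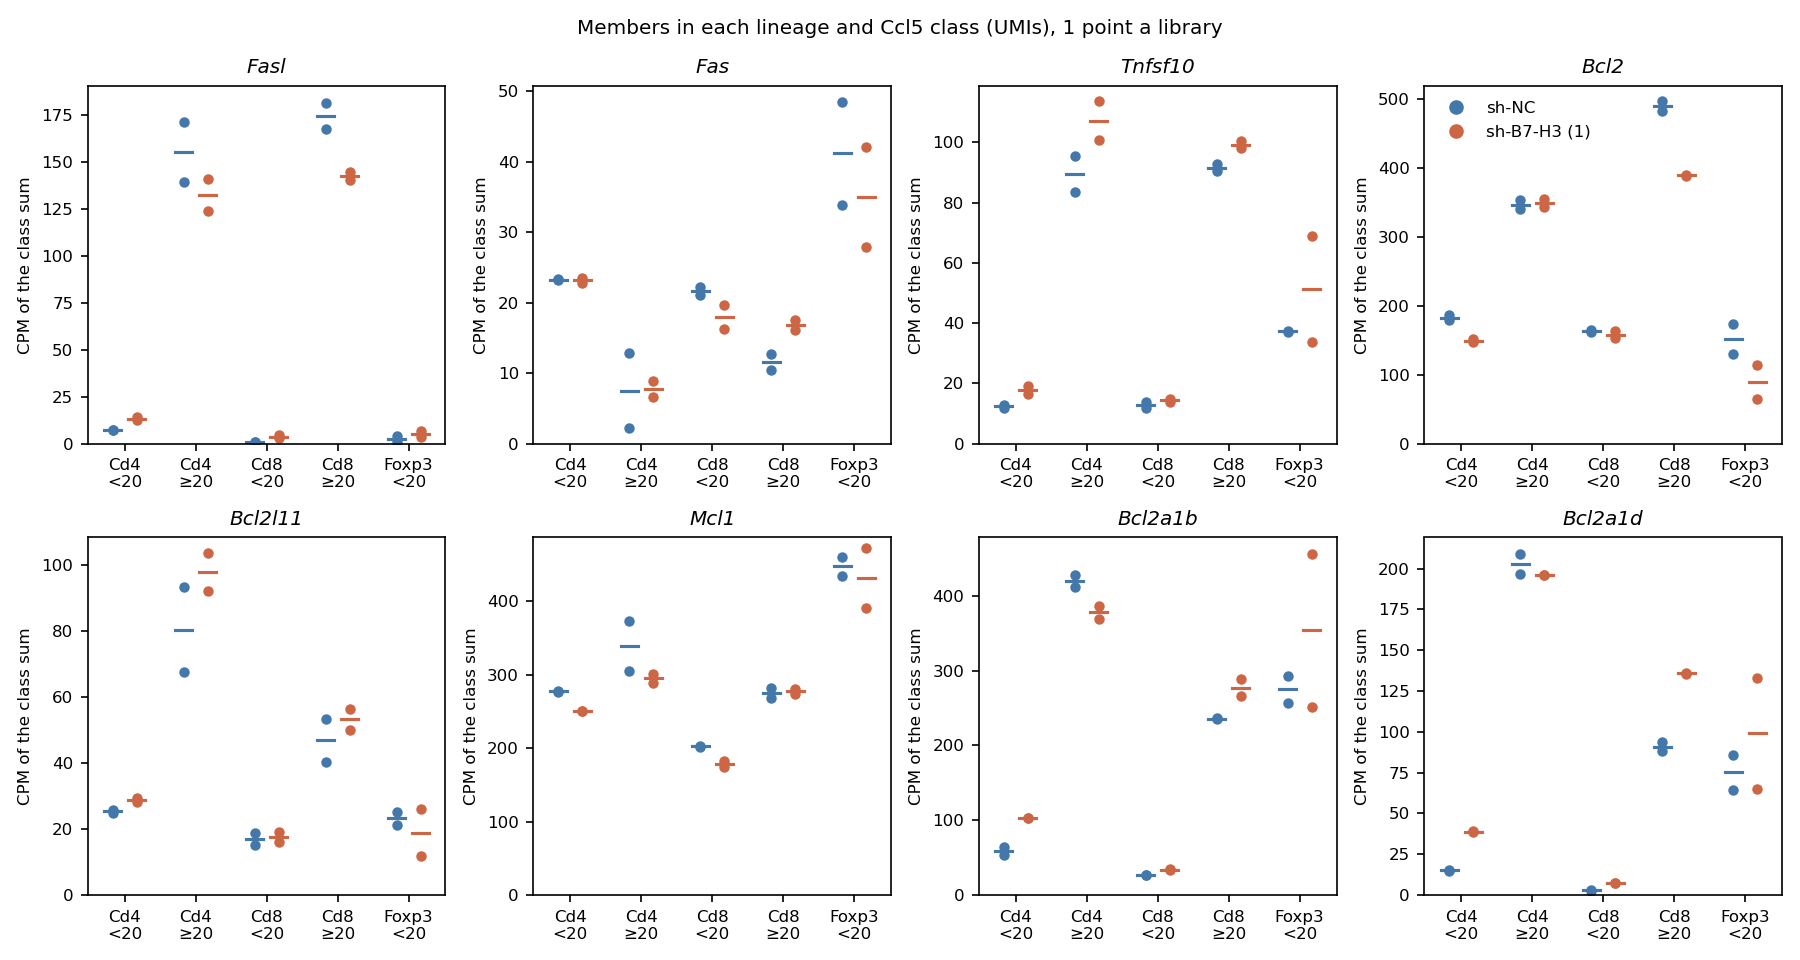
CPM of the 8 members (vertical axes, linear and starting at 0) in each class of cells, with 1 point for each library, a bar at the mean of the 2 libraries of a group, sh-NC in blue and sh-B7-H3 (1) in orange. In Cd4 and Cd8 cells Fasl is at 124 to 182 CPM with at least 20 Ccl5 UMIs and at no more than 13.9 CPM below, while Fas and Mcl1 are higher in Foxp3 cells with Ccl5 under 20 than in Cd4 and Cd8 cells of that class.

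Fasl, the ligand of Fas, was far higher above the limit in both Cd4 and Cd8 cells. In Cd4 cells above the limit it stood at 171 and 140 CPM in sh-NC replicates 1 and 2 and at 141 and 124 CPM in sh-B7-H3 (1) replicates 1 and 2, and below the limit at 7.43, 7.37, 12.5 and 13.9 CPM in the same order. In Cd8 cells the values were 167, 182, 144 and 140 CPM above the limit and 0.565, 0.595, 2.91 and 4.50 CPM below it, the last from 10 to 26 UMIs a library. No library of a class overlapped with the other class. The log2 difference was 3.57 ± 0.18 (SE) in Cd4 cells (adjusted p = 3.47e-08) and 6.60 ± 0.30 in Cd8 cells (adjusted p = 4.60e-09).

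The share of cells with a Fasl UMI followed the same division at equal depth. With each cell thinned to 2000 RNA UMIs, 21.1 to 30.4% of Cd4 and 23.5 to 30.9% of Cd8 cells above the Ccl5 limit had one, against 1.46 to 2.73% and 0.095 to 0.97% below it. Unthinned shares were 55.0 to 62.3% and 53.0 to 63.9% above the limit, and 5.08 to 7.35% and 0.43 to 3.37% below. Set beside them were Cd4 cells without Ccl5 that carried Ccr7, a choice made after the data were seen, of which 0.855 to 1.63% had a Fasl UMI at equal depth (unthinned 3.42 to 5.32%, median depths of 7022 to 8262 RNA UMIs against 5787 to 6968 above the limit). In sh-NC the shares of Cd8 cells below the limit, 0.095 and 0.229%, lay under those of these Cd4 cells, 1.33 and 1.63%. In sh-B7-H3 (1) they were 0.73 and 0.968% against 1.06 and 0.855%, with exact 95% binomial intervals that overlap. Of the 37 Fasl UMIs of these sh-B7-H3 (1) Cd8 cells, 21 lay in the 91 cells with 5 to 19 Ccl5 UMIs (24.5 CPM, against 1.14 CPM with none). Thinning left out 1 of 1232 Cd4 and 4 of 2148 Cd8 cells above the limit, and 43 of 4541 Cd4 cells (5 of sh-NC and 38 of sh-B7-H3 (1)) and 13 of 4896 Cd8 cells below it.

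Tnfsf10, the gene of TRAIL, was raised by a similar size in both lineages. Above the limit it measured 83.5, 95.6, 101 and 114 CPM in Cd4 cells of sh-NC replicates 1 and 2 and sh-B7-H3 (1) replicates 1 and 2, and below it 11.9, 12.9, 19.1 and 16.6 CPM. In Cd8 cells it measured 92.7, 90.4, 100.3 and 98.0 CPM above the limit and 11.8 to 14.9 CPM below it. The classes did not overlap, and the log2 differences were 2.40 ± 0.10 (adjusted p = 1.25e-08) and 2.48 ± 0.08 (adjusted p = 3.16e-10).

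Fas, the death receptor, went the other way. In Cd4 cells it fell from 22.7 to 23.5 CPM below the limit to 12.8, 2.15, 8.93 and 6.59 CPM above it (log2 difference -1.92 ± 0.22, adjusted p = 2.27e-05), on 2 to 26 UMIs a library above the limit. In Cd8 cells the difference was smaller, -0.80 ± 0.15 (adjusted p = 0.000785), and the ranges touched, since 16.1 to 17.5 CPM in sh-B7-H3 (1) cells above the limit met 16.3 to 19.6 CPM below it. The sh-NC cells above the limit had 10.5 and 12.7 CPM.

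The A1 copies rose most among the antiapoptotic genes. Bcl2a1d stood at 196 to 209 CPM in Cd4 cells above the limit and at 15.0 to 39.3 CPM below it, and in Cd8 cells at 88.2 to 136 CPM against 2.36 to 7.41 CPM. Its log2 difference was 2.68 ± 0.22 in Cd4 (adjusted p = 1.45e-06) and 4.36 ± 0.14 in Cd8 cells (adjusted p = 3.16e-10). Bcl2a1b moved with it, by 2.02 ± 0.16 (adjusted p = 9.15e-07) and 2.76 ± 0.06 (adjusted p = 2.28e-11).

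Bcl2 and its opponent Bcl2l11 were both higher above the limit in both lineages. Bcl2 went from 147 to 186 CPM below the limit to 339 to 354 CPM above it in Cd4 cells (0.75 ± 0.08, adjusted p = 9.07e-06) and from 153 to 165 CPM to 388 to 497 CPM in Cd8 cells (1.11 ± 0.06, adjusted p = 3.18e-08). Bcl2l11 went from 24.9 to 29.4 CPM to 67.4 to 104 CPM in Cd4 (1.40 ± 0.10, adjusted p = 4.80e-07) and from 15.1 to 19.1 CPM to 40.4 to 56.4 CPM in Cd8 cells (1.19 ± 0.08, adjusted p = 1.19e-07). Mcl1 differed least, with 0.20 ± 0.05 in Cd8 cells (adjusted p = 0.00573) and -0.07 ± 0.07 in Cd4 cells (adjusted p = 0.436). The Cd4 value has the opposite sign on unscaled CPM (log2 ratio 0.26). On plain CPM the median gene above 20 CPM was itself shifted by 0.32 (log2) in Cd4 and 0.33 in Cd8 cells of this comparison, and by -0.10 in the knockdown comparison of Cd8 cells below the limit, and the fitted differences are relative to those shifts. Without sh-B7-H3 (1) replicate 2 the Cd8 call of Mcl1 was lost (adjusted p = 0.0593).

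Finer steps of Ccl5 placed the change of level between 1 to 4 and 20 UMIs. In sh-NC Cd8 cells Fasl was at 0.319 and 0.309 CPM with no Ccl5 UMI, at 0.311 and 0.920 CPM with 1 to 4, at 8.56 and 5.00 CPM with 5 to 19, at 146 and 166 CPM with 20 to 99 and at 194 and 201 CPM with 100 or more. In sh-B7-H3 (1) Cd8 cells the last step brought no further increase, with 148 and 140 CPM at 20 to 99 and 142 and 141 CPM at 100 or more. Cells with 5 to 19 Ccl5 UMIs were scarce, 21 sh-NC and 99 sh-B7-H3 (1) Cd4 cells and 99 and 91 Cd8 cells, and values there are coarse.

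**Figure D2:**
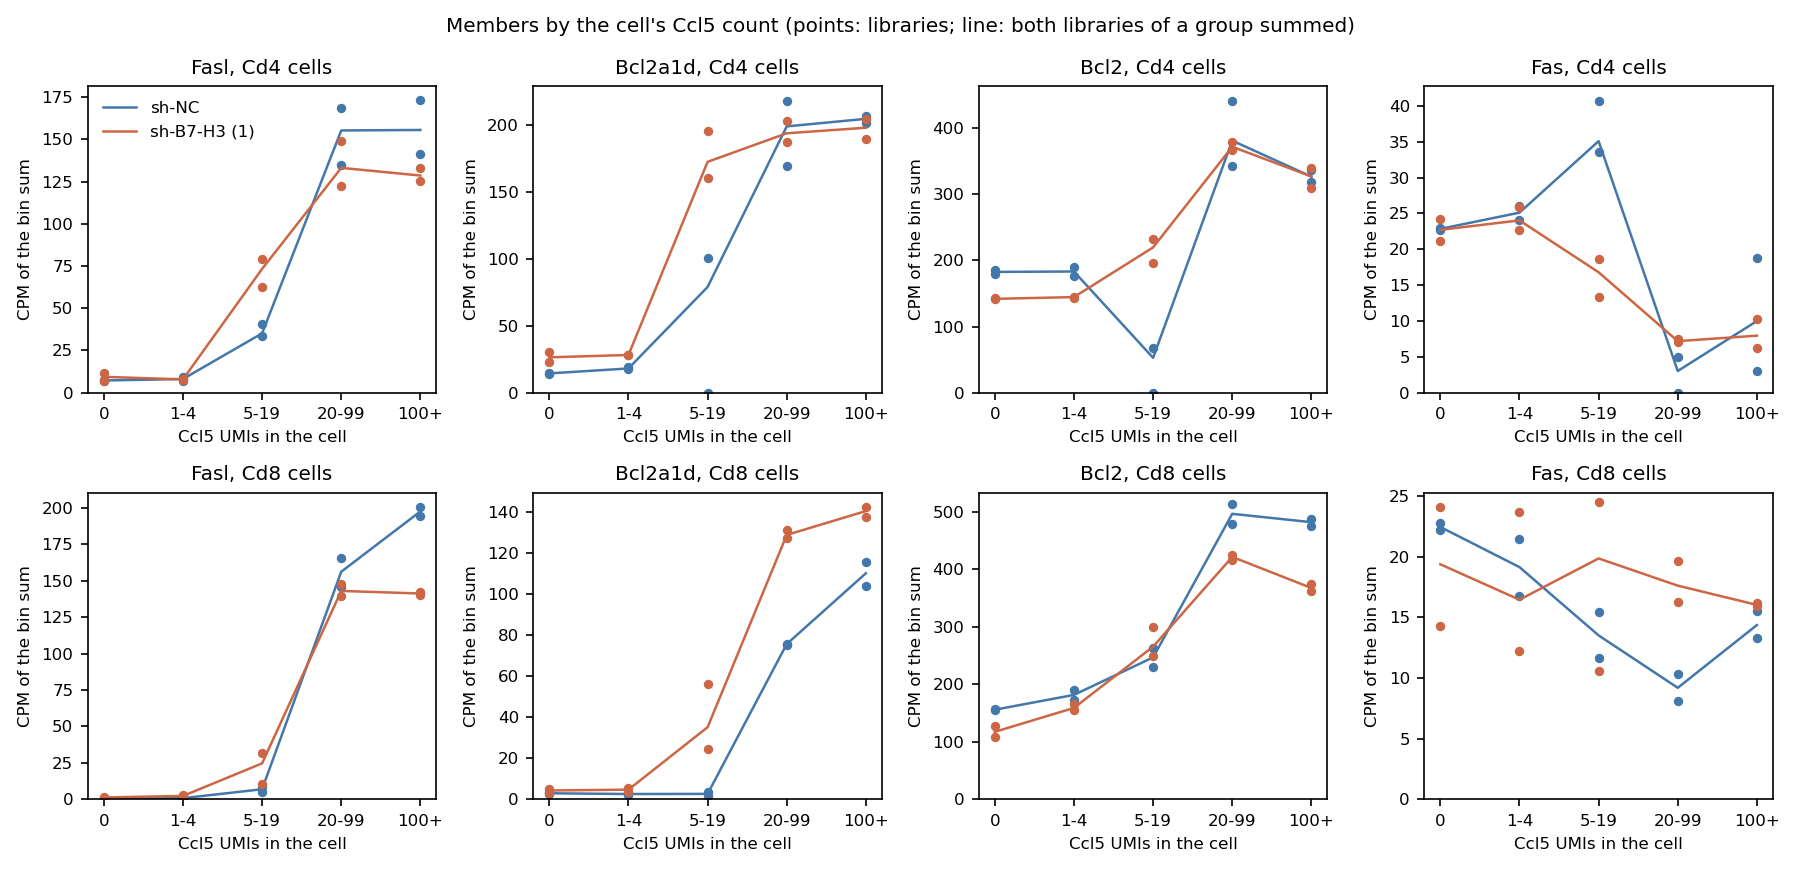
CPM of Fasl, Bcl2a1d, Bcl2 and Fas (vertical axes, linear from 0) by the number of Ccl5 UMIs in the cell (horizontal axis, 5 bins) in Cd4 cells (upper row) and Cd8 cells (lower row), with a point for each library and a line for the 2 libraries of a group summed. Fasl and Bcl2a1d are near the floor up to 4 Ccl5 UMIs and near their upper level from 20, and Fas is lower from 20 on in Cd4 cells.

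The knockdown was accompanied by a different mix of these classes. Cells with at least 20 Ccl5 UMIs made up 6.94 and 8.20% of Cd4 cells in the sh-NC libraries (exact binomial 95% intervals 5.86 to 8.14 and 6.91 to 9.65%) and 43.7 and 45.0% in the sh-B7-H3 (1) libraries (40.4 to 47.0 and 42.2 to 47.8%). In Cd8 cells the shares were 14.6 and 18.1% against 58.6 and 56.6%. In Foxp3 cells they were 5.63 and 5.11% against 5.43 and 10.2%, where each library held only 5 to 9 such cells. With 2 libraries against 2 the exact permutation test, two-sided, cannot go below p = 0.333, which is what the Cd4 and Cd8 shares gave (p = 0.667 for Foxp3 cells). The intervals cover counting error only. RNA quality moved with these shares, since 20.9 and 21.3% of called cells in the sh-NC libraries and 37.6 and 36.5% in the sh-B7-H3 (1) libraries exceeded the limit on mitochondrial UMIs and were left out. With that limit at 10% in place of 5%, the mean shares of cells with at least 20 Ccl5 UMIs were 7.04 against 37.5% in Cd4 cells (7.57 against 44.3% at 5%) and 15.6 against 49.6% in Cd8 cells (16.4 against 57.6%), and the part of the cells left out was not tested further.

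In whole lineages, without regard to Ccl5, every member moved in Cd4 cells and all but Mcl1 in Cd8 cells. In Cd4 cells 6 members were higher and 2 lower in sh-B7-H3 (1), and in Cd8 cells 6 were higher and 1 lower by edgeR's quasi-likelihood test, where 44.2% and 39.7% of all genes tested passed. The members' median log2 fold change was 1.14 in Cd4 and 0.94 in Cd8 cells, beside 0.00 and 0.01 over all genes, which the scaling holds near 0. The members were chosen with earlier results of these data known and both A1 copies enter the median, so it only describes these genes.

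Fasl stood at 17.2 and 16.5 CPM in sh-NC Cd4 cells and at 68.5 and 63.0 CPM in sh-B7-H3 (1), a log2 fold change of 1.85 ± 0.08 (adjusted p = 1.03e-12), and rose in Cd8 cells from 19.2 and 25.5 to 72.0 and 68.1 CPM (1.59 ± 0.09, adjusted p = 6.89e-13). Tnfsf10 rose by 1.63 ± 0.09 in Cd4 (16.2 and 18.6 against 54.8 and 60.0 CPM) and by 1.22 ± 0.07 in Cd8 cells. Bcl2a1d had the largest fitted increase of the 8 in both lineages, 1.89 ± 0.06 in Cd4 and 2.26 ± 0.09 in Cd8 cells, with 11.95 and 15.66 against 69.8 and 67.6 CPM in the latter. Bcl2a1b rose by 1.34 ± 0.05 and 1.44 ± 0.06. For these 4 genes the groups did not overlap in either lineage.

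Smaller changes were seen in the other members. Bcl2l11 rose by 0.94 ± 0.08 in Cd4 (adjusted p = 1.13e-08) and 0.67 ± 0.10 in Cd8 cells (adjusted p = 1.48e-05), and Bcl2 by 0.19 ± 0.04 (adjusted p = 0.000587) and 0.33 ± 0.04 (adjusted p = 1.81e-07). Fas fell by 0.56 on the log2 scale in Cd4 cells (SE 0.11, adjusted p = 0.000274) and by 0.31 in Cd8 cells (SE 0.09, adjusted p = 0.010), the latter call being lost without sh-B7-H3 (1) replicate 2 and with DESeq2 (highest adjusted p = 0.270). Mcl1 was lower by 0.16 in Cd4 cells (log2 fold change -0.16 ± 0.03, adjusted p = 0.000721), whereas in Cd8 cells its fold change was 0.03 ± 0.04 (adjusted p = 0.581).

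The ratios of sh-B7-H3 (1) over sh-NC levels were also taken with both groups at the sh-NC mix of classes. There all members but Mcl1 lay nearer 1 than as measured, Bcl2 on the other side of 1. The part of the mix in the differences was not tested. For the calculation, each library's own class levels were weighted by the mean share of RNA that came from cells above the Ccl5 limit in the sh-NC libraries, 6.43% in Cd4 and 12.5% in Cd8 cells. The ratio of mean Fasl levels, 3.90 as measured in Cd4 cells, became 1.23, and in Cd8 cells 3.14 became 0.943. For Tnfsf10 the ratios were 3.30 and 1.36 in Cd4 and 2.44 and 1.10 in Cd8 cells.

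The BCL-2 family genes divided under the same weighting. The Bcl2 ratio turned over in both lineages, from 1.23 and 1.32 in Cd4 and Cd8 cells to 0.839 and 0.915. Mcl1 went from 0.960 to 0.902 in Cd4 cells and turned over in Cd8 cells, from 1.07 to 0.901. Bcl2l11 went from 2.05 to 1.15 in Cd4 and from 1.67 to 1.06 in Cd8 cells. Bcl2a1d stayed highest, with 1.80 in Cd4 (3.98 as measured) and 1.69 in Cd8 cells (4.98 as measured), and Bcl2a1b had 1.47 and 1.21. Fas in Cd4 cells went from 0.736 to 0.997 and in Cd8 cells from 0.854 to 0.873. These ratios are arithmetic on the measured levels at the sh-NC mix alone and were not tested. Another mix would weigh the classes differently, and its ratios were not computed. In Cd4 cells of sh-NC against sh-B7-H3 (1), mean Bcl2a1d was 15.2 against 38.8 CPM below the limit and 203 against 196 CPM above it. Mean Fasl was 7.40 against 13.2 CPM below and 155 against 132 CPM above it. The class-by-class comparisons test the level of 1 class at a time.

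**Figure D3:**
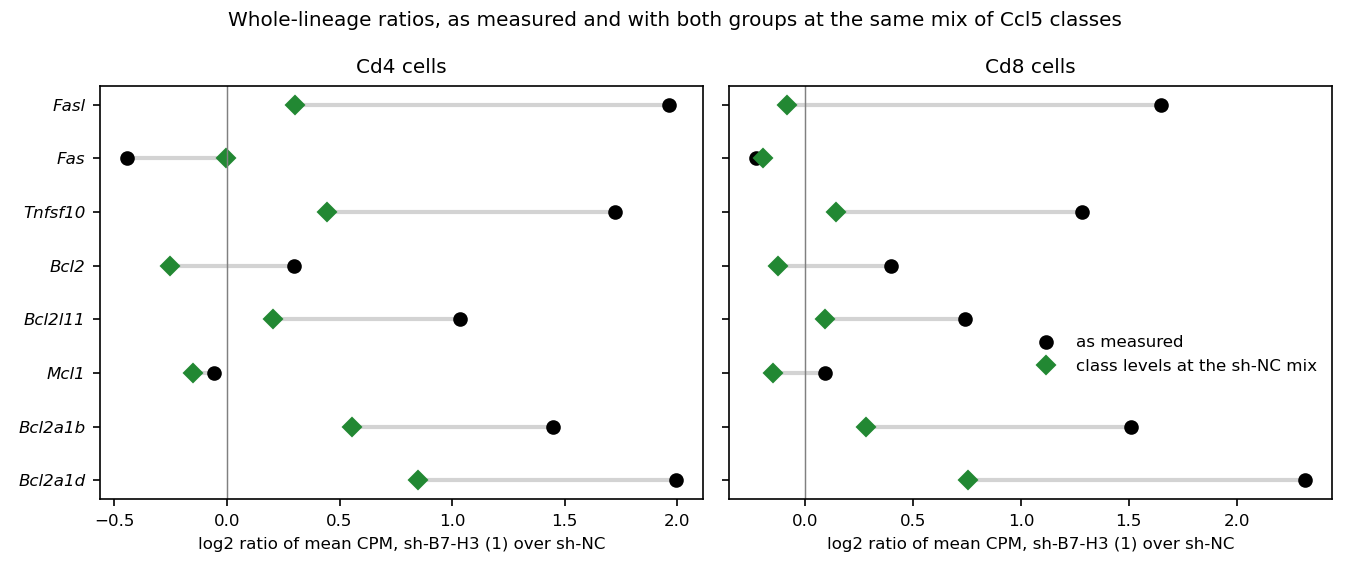
log2 ratio of mean CPM in sh-B7-H3 (1) over sh-NC (horizontal axis, 0 marks equality) for each member in whole Cd4 and Cd8 cells, as measured (black circles) and with the class levels of both groups weighted by the sh-NC mix of Ccl5 classes (green diamonds). Fasl moves from 1.96 to 0.30 in Cd4 and from 1.65 to -0.08 in Cd8 cells, Bcl2 crosses 0 in both, and Bcl2a1d stays at 0.85 and 0.76.

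Among cells with at least 20 Ccl5 UMIs, no member passed in Cd4 cells and 4 of 8 passed in Cd8 cells. Of all genes tested, 4.76% passed in Cd4 and 8.23% in Cd8 cells, and the members' median log2 fold changes were 0.04 and 0.19. At an unadjusted p under 0.05, 2 of the 8 members passed in Cd4 cells with edgeR (Tnfsf10 and Bcl2l11, lowest adjusted p = 0.123), and DESeq2 called none of the 7 for which it gave an adjusted p. Counts there rested on 133 and 138 sh-NC cells. Bcl2l11 passed under 2 of 17 alternatives, without sh-NC replicate 2 (log2 fold change 0.62) and without doublet removal, and Tnfsf10 under 3 of 17, all with looser limits on doublets or on genes per cell (lowest adjusted p = 0.0159).

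In Cd8 cells above the limit, Bcl2 was lower in sh-B7-H3 (1), at 390 and 388 CPM against 483 and 497 CPM (log2 fold change -0.28 ± 0.04, adjusted p = 0.000204). Bcl2a1d was higher, at 135 and 136 against 88.2 and 93.7 CPM (0.63 ± 0.08, adjusted p = 1.90e-05), and so was Bcl2a1b, at 289 and 266 against 235 and 236 CPM (0.28 ± 0.06, adjusted p = 0.00290). Fasl, which in the whole lineage was 3.01-fold higher, was slightly lower in this class (-0.25 ± 0.07, adjusted p = 0.0269), a call that 6 of 17 alternatives did not keep (highest adjusted p = 0.287), among them the omission of sh-NC replicate 2 or of either sh-B7-H3 (1) library. In the same class 4 resting T cell genes were lower in both sh-B7-H3 (1) libraries, with Il7r at 126 and 102 CPM in sh-NC against 27.5 and 25.1 CPM, Tcf7 at 54.7 and 51.5 against 16.4 and 17.3 CPM, Lef1 at 49.4 and 45.9 against 20.6 and 19.6 CPM, and Ccr7 at 24.9 and 12.3 against 6.11 and 7.25 CPM, and their part in the differences was not tested.

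Thinned shares gave a partly different picture of this class. At equal depth, Bcl2 was detected in 56.3 ± 3.1% (SD, n = 2) of sh-NC and 47.0 ± 1.8% of sh-B7-H3 (1) Cd8 cells above the limit, and Fasl in 29.4 ± 2.2 and 25.3 ± 2.5% (exact permutation p = 0.333 for both, the smallest that 2 against 2 libraries allow). Bcl2a1d was detected in 19.7 ± 1.0 and 20.6 ± 0.5%, a difference within the spread, whereas the unthinned shares were 38.7 and 48.8%.

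Below the Ccl5 limit, 5 members passed in Cd4 cells, 4 higher and 1 lower, and 3 passed in Cd8 cells, all higher, in edgeR. Of all genes tested, 10.3% and 6.38% passed, and the members' medians were 0.37 and 0.19 on the log2 scale. Both A1 copies passed in both lineages. Bcl2a1d rose from 15.3 and 15.0 to 39.3 and 38.3 CPM in Cd4 cells (1.37 ± 0.10, adjusted p = 1.57e-06) and from 2.36 and 3.21 to 7.41 and 7.09 CPM in Cd8 cells (1.46 ± 0.24, adjusted p = 0.00168). Bcl2a1b rose from 63.9 and 54.1 to 103 and 103 CPM in Cd4 cells (0.82 ± 0.08, adjusted p = 1.86e-05).

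Within this class Bcl2a1d differed with the number of Ccl5 UMIs. With no Ccl5 UMI at all, it stood at 14.2 and 14.5 CPM in sh-NC Cd4 cells and at 30.4 and 22.6 CPM in sh-B7-H3 (1), and with 1 to 4 UMIs at 18.8 and 17.3 against 28.2 and 28.1 CPM. No Ccl5 UMI was found in 2825 sh-NC and 363 sh-B7-H3 (1) Cd4 cells, and 1 to 4 UMIs in 493 and 740. Ccl5 was itself higher in the free RNA of sh-B7-H3 (1), as given below. Whether these bins hold like cells in both groups was not tested, for this gene or for those below. The 99 sh-B7-H3 (1) Cd4 cells with 5 to 19 UMIs held 113 Bcl2a1d UMIs (172 CPM), against 65 and 151 UMIs in the 363 and 740 cells with fewer. In Cd8 cells the groups overlapped with no Ccl5 UMI (2.30 and 3.48 against 3.17 and 5.11 CPM) and did not overlap with 1 to 4 UMIs (2.80 and 2.15 against 3.58 and 5.21 CPM), where they held 16 and 28 Bcl2a1d UMIs in all. The 91 sh-B7-H3 (1) Cd8 cells with 5 to 19 UMIs held 30 Bcl2a1d UMIs (35.1 CPM), against 11 and 28 in the 301 and 647 cells with fewer, and the Cd8 call was lost at a Ccl5 limit of 10 (adjusted p = 0.104).

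Bcl2 was lower in Cd4 cells below the limit, at 180 and 186 against 143 and 141 CPM with no Ccl5 UMI, and over the whole class at 179 and 186 against 147 and 152 CPM (-0.27 ± 0.05, adjusted p = 0.00264). At a Ccl5 limit of 40 UMIs the Bcl2 call was lost (adjusted p = 0.235). Mcl1 in Cd4 cells stood at 278 and 277 against 251 and 251 CPM and did not pass (-0.12 ± 0.04, adjusted p = 0.0523), but passed under 10 of 17 alternatives, the replicate block among them (adjusted p = 0.043), and under none that left out a library (adjusted p from 0.152 to 0.293).

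Fasl passed below the limit as well, in Cd4 cells with 7.43 and 7.37 against 12.5 and 13.9 CPM (0.86 ± 0.17, adjusted p = 0.00398) and in Cd8 cells with 21 UMIs in all of sh-NC and 37 in sh-B7-H3 (1) (2.79 ± 0.38, adjusted p = 0.000282). In Cd4 cells without Ccl5 it was at 6.95 and 7.40 against 11.8 and 7.02 CPM and with 1 to 4 UMIs at 9.42 and 6.84 against 7.73 and 7.89 CPM, so the groups overlapped there, and with 5 to 19 UMIs it was at 33.5 and 40.7 against 62.3 and 79.0 CPM. A Ccl5 limit of 10 in place of 20 removed the Cd4 call, as did DESeq2 and the omission of sh-B7-H3 (1) replicate 2 (highest adjusted p = 0.196). Tnfsf10 in Cd4 cells (0.54 ± 0.14, adjusted p = 0.0270) and Bcl2a1b in Cd8 cells (0.41 ± 0.09, adjusted p = 0.0127) passed too, and each was lost under 7 of 17 alternatives (highest adjusted p = 0.317 and 0.459), including the omission of sh-NC replicate 1 or of either sh-B7-H3 (1) library.

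Other measures moved with these values below the limit. The effector genes named above summed to 65.4 and 81.8 CPM in sh-NC Cd4 cells and to 382 and 406 CPM in sh-B7-H3 (1) Cd4 cells of this class. Free RNA, taken from barcodes not called as cells with 1 to 100 RNA UMIs, held Fasl at 13.6 and 14.1 CPM in the sh-NC libraries and at 42.6 and 41.1 CPM in the sh-B7-H3 (1) libraries, and Bcl2a1d at 8.95 and 14.1 against 33.7 and 32.1 CPM. In it Bcl2a1b was at 59.1 and 60.0 against 104 and 122 CPM, and Tnfsf10 at 22.7 and 22.0 against 33.7 and 42.8 CPM. Bcl2 was at 190 and 182 against 216 and 224 CPM there, and Bcl2l11 at 24.8 and 25.8 against 36.9 and 30.4 CPM. Fas, at 28.3 and 33.1 against 20.4 and 17.3 CPM, and Mcl1, at 314 and 346 against 301 and 281 CPM, were lower. Ccl5, whose count sets the classes and bins, was at 1212 and 1417 against 4279 and 4742 CPM in free RNA. The part of this free Ccl5 RNA in the Ccl5 counts of cells was not tested. Myeloid markers summed to 98.3 and 158 CPM in sh-NC and to 218 and 294 CPM in sh-B7-H3 (1) Cd4 cells of this class. With cells of at least 3 myeloid, B or NK marker UMIs left out, the 8 calls below the limit were kept, while myeloid RNA at lower counts per cell remained. The regulatory T cell genes, as given above, were also higher in these sh-B7-H3 (1) Cd4 cells. In Cd8 cells of this class they summed to 8.73 to 10.4 CPM in sh-NC and 15.9 to 18.2 CPM in sh-B7-H3 (1), the effector genes to 618 to 625 and 670 to 695 CPM, and the myeloid markers to 22.1 to 70.6 and 41.0 to 163 CPM, of which only the last overlapped. The resting T cell genes Il7r, Tcf7, Lef1 and Ccr7 were each lower in both sh-B7-H3 (1) libraries than in both sh-NC libraries below the limit, in Cd4, Cd8 and Foxp3 cells alike. Il7r was at 431 and 435 CPM against 309 and 303 CPM in Cd4, at 321 and 308 against 216 and 222 CPM in Cd8, and at 776 and 787 against 517 and 656 CPM in Foxp3 cells. The part of the effector, regulatory and resting T cell genes, of free RNA and of myeloid RNA in the differences was not tested.

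**Figure D4:**
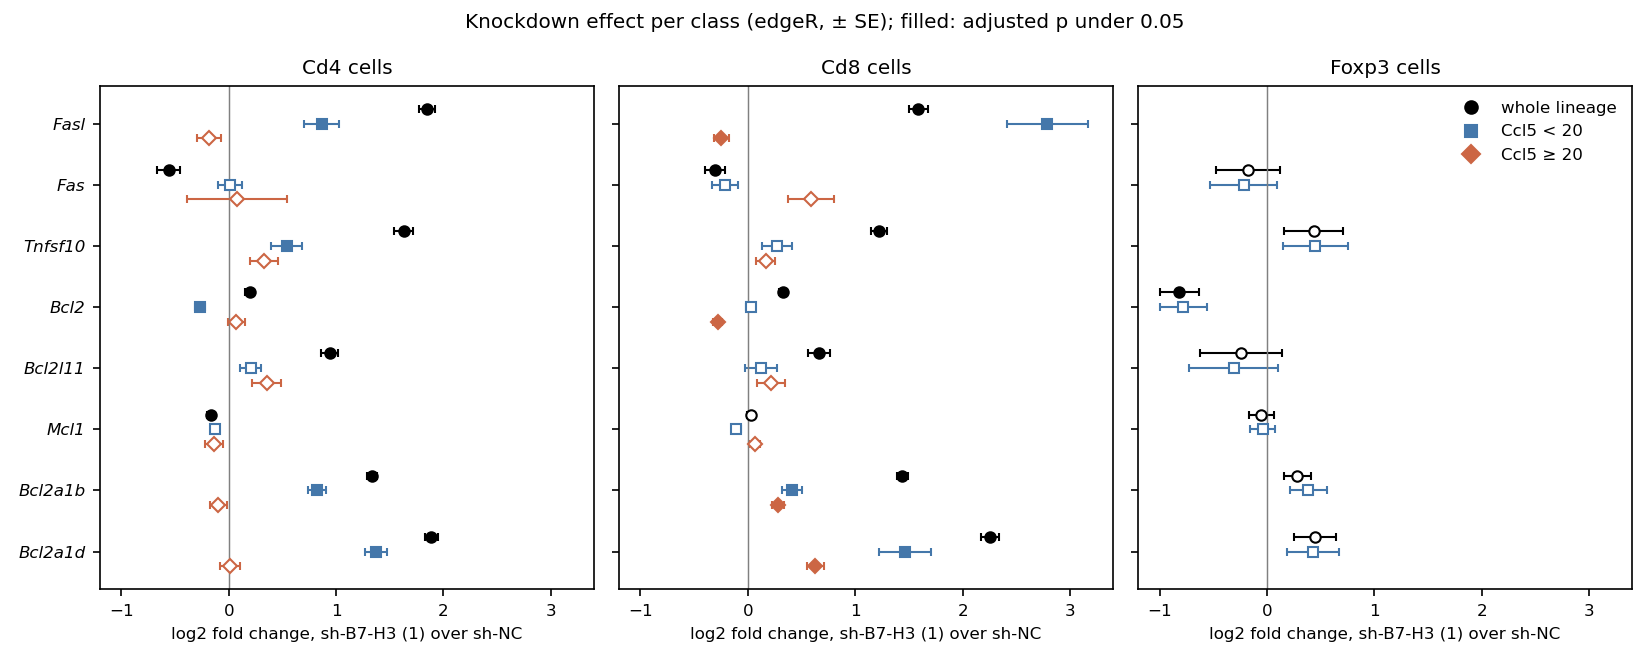
log2 fold change of sh-B7-H3 (1) over sh-NC (horizontal axis, bars give the SE) for each member in whole lineages (black circles), cells with Ccl5 under 20 (blue squares) and at least 20 (orange diamonds), with filled symbols where the edgeR adjusted p was under 0.05. Whole-lineage values of Fasl, Tnfsf10 and Bcl2l11 in Cd4 cells lie to the right of both classes, while Fasl in Cd8 cells is at 2.79 below the limit and at -0.25 above it.

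The knockdown effect on the class sums differed between the Ccl5 classes for 4 members in Cd4 and 3 in Cd8 cells by an interaction test in edgeR, which 4.84% and 3.61% of all genes passed. The signed differences, as the log2 fold change above minus that below the limit, were -1.05 ± 0.22 for Fasl, -1.36 ± 0.16 for Bcl2a1d and -0.92 ± 0.10 for Bcl2a1b in Cd4 cells, where these genes passed as higher below the limit and did not pass above it. For Bcl2 in Cd4 cells the difference was 0.34 ± 0.10, from -0.27 (passed) below and 0.07 (not passed) above the limit. In Cd8 cells the differences were -3.04 ± 0.39 for Fasl, higher below and lower above the limit, and -0.84 ± 0.25 for Bcl2a1d, higher in both classes. For Bcl2 in Cd8 cells the difference was -0.32 ± 0.07, from 0.03 (not passed) below and -0.28 (passed) above the limit. The call for Bcl2a1d in Cd8 cells was lost under 9 of 17 alternatives and that for Bcl2 in Cd4 cells under 7, each including the omission of single libraries, with log2 differences from -1.49 to -0.17 and from 0.09 to 0.42. For Tnfsf10, Bcl2l11, Mcl1 and Fas no difference of the effects passed in either lineage. Fas in Cd8 cells came nearest, with a log2 fold change of 0.58 ± 0.21 above and -0.21 ± 0.12 below the limit (difference 0.78 ± 0.25, adjusted p = 0.0643).

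Foxp3 cells had a profile of their own among the classes with Ccl5 under 20. Mcl1 stood at 391 to 472 CPM in the 4 libraries, above the 251 to 278 CPM of Cd4 and the 174 to 203 CPM of Cd8 cells. Bcl2a1b stood at 251 to 457 CPM against 54.1 to 103 and 26.2 to 34.4 CPM, and Fas at 27.9 to 48.4 CPM against 22.7 to 23.5 and 16.3 to 22.1 CPM. None of these ranges overlapped with those of Cd4 or Cd8 cells in the same Ccl5 class. Fasl had 1 to 4 UMIs per library in Foxp3 cells, too few for the filter on low counts.

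Few differences between the tumor groups passed in Foxp3 cells. Only Bcl2 passed in the whole lineage, at 165 and 124 CPM in sh-NC and 60.1 and 103 CPM in sh-B7-H3 (1) (log2 fold change -0.81 ± 0.19, adjusted p = 0.00195), where 2.05% of all genes passed in edgeR. The call was lost under 6 of 13 alternatives (highest adjusted p = 0.452), among them the omission of sh-NC replicate 1 or of sh-B7-H3 (1) replicate 1. In Foxp3 cells with Ccl5 under 20 no member passed (0.745% of all genes). At an unadjusted p under 0.05, 2 of 7 passed with edgeR, and DESeq2 gave an adjusted p for only 1 of the 7, Mcl1 (0.906). Bcl2 had a log2 fold change of -0.78 ± 0.22 (adjusted p = 0.119) and passed under 4 of 16 alternatives, among them the replicate number as a replicate block (adjusted p = 0.0035) and the omission of sh-NC replicate 2 (lowest adjusted p = 0.000984, at a Foxp3 limit of 1 UMI). Bcl2a1b and Bcl2a1d passed at that Foxp3 limit as well, both higher in sh-B7-H3 (1) (adjusted p = 0.00774 and 0.0166). At the Foxp3 limit of 2 UMIs used elsewhere, where Bcl2a1b did not pass (adjusted p = 0.423), it was at 457 CPM in sh-B7-H3 (1) replicate 1 and at 251 CPM in replicate 2, a spread between lanes wider than the difference of the groups.

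Foxp3 cells with at least 20 Ccl5 UMIs were 15 in sh-NC and 14 in sh-B7-H3 (1) and were not tested. Over these cells Bcl2 had 1 UMI of 102440 RNA UMIs in sh-NC and none of 93983 in sh-B7-H3 (1), a count of 0 that allows up to 31.9 CPM, whereas Cd4 cells of the same Ccl5 class had 339 to 354 CPM. Bcl2a1b had 85 and 41 UMIs and Mcl1 had 50 and 34 UMIs in the same cells.

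The levels can be set in order for the 5 tested classes. Fasl was highest in Cd8 and Cd4 cells above the Ccl5 limit, which did not differ beyond their spread (140 to 182 and 124 to 171 CPM), then came Cd4 cells below it (7.37 to 13.9 CPM), and then Foxp3 and Cd8 cells below it, which overlapped (1.01 to 6.74 and 0.565 to 4.50 CPM). Tnfsf10 was alike in Cd4 and Cd8 cells above the limit (83.5 to 114 and 90.4 to 100.3 CPM), lower in Foxp3 cells (33.7 to 68.9 CPM) and lowest in Cd4 and Cd8 cells below the limit, which overlapped. Bcl2 led in Cd8 cells above the limit (388 to 497 CPM), followed by Cd4 cells above it (339 to 354 CPM), whereas Bcl2a1d led in Cd4 cells above the limit (196 to 209 CPM) ahead of Cd8 cells above it (88.2 to 136 CPM). Foxp3 cells overlapped with the latter for Bcl2a1d (64.6 to 133 CPM). Bcl2l11 led in Cd4 cells above the limit (67.4 to 104 CPM), ahead of Cd8 cells above it.

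Surface tags existed for 3 of the member proteins, Fas (CD95), Fas ligand (CD178) and TRAIL (CD253). The Fas tag followed the RNA between Ccl5 classes. In Cd4 cells it took 13.0 and 13.2 of 10000 tag UMIs in sh-NC and 11.02 and 10.2 in sh-B7-H3 (1) below the limit, and 4.73, 4.57, 3.95 and 4.42 above it (log2 difference -0.91 ± 0.04, adjusted p = 0.000321), and in Cd8 cells the difference was -0.43 ± 0.07 (adjusted p = 0.00701). It was highest in Foxp3 cells with Ccl5 under 20, at 18.0 and 17.3 in sh-NC and 13.9 and 13.5 in sh-B7-H3 (1), as the RNA was. Of 197 tags, 27.9% passed in this comparison in Cd4 and 27.9% in Cd8 cells.

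The Fas tag was also lower in sh-B7-H3 (1) in all 8 comparisons of whole lineages and classes, with log2 fold changes from -1.02 to -0.50. Within the Ccl5 classes the Fas RNA did not pass, and its log2 fold changes of 0.08 and 0.01 in Cd4 and 0.58 and -0.21 in Cd8 cells, above and below the limit, stood beside -0.67, -0.71, -0.50 and -0.70 for the tag. In whole lineages it fell by 1.02 in Cd4 (SE 0.03, adjusted p = 0.000637), by 0.83 in Cd8 (SE 0.03, adjusted p = 0.000449) and by 0.62 in Foxp3 cells (SE 0.07, adjusted p = 0.00418). Tags that passed were many, 55.8%, 61.4% and 26.4% of all in whole Cd4, Cd8 and Foxp3 cells, 42.6% and 51.8% in Cd4 and Cd8 cells above the limit, and 53.3%, 59.4% and 22.8% in Cd4, Cd8 and Foxp3 cells below it. The size depended on the scaling, since on plain shares of tag UMIs the log2 ratios ran from -0.77 to -0.02, and in Cd8 cells above the limit the shares overlapped (5.86 and 6.44 in sh-NC, 5.98 and 6.17 in sh-B7-H3 (1)). Above the limit, the highest isotype control tag in sh-B7-H3 (1) took 7.07 and 8.02 in Cd4 and 7.51 and 8.28 in Cd8 cells. The Fas tag lay under these values. In sh-NC the highest isotype control took 3.86 and 3.70 in Cd4 and 4.15 and 4.22 in Cd8 cells, below the Fas tag. Fold changes of the Fas tag above the limit are therefore near background. The same limit holds in whole sh-B7-H3 (1) lineages, with Fas tag means of 7.11 in Cd4 and 7.16 in Cd8 cells. The highest isotype control took 8.35 and 8.97 in Cd4 and 8.02 and 8.83 in Cd8 cells there. Below the limit in sh-B7-H3 (1), the means were 8.95 in Cd8 cells (control 8.91 and 9.70) and 10.6 in Cd4 cells (9.91 and 10.1). In whole sh-B7-H3 (1) Foxp3 cells the mean was 13.6 (8.18 and 7.89).

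**Figure D5:**
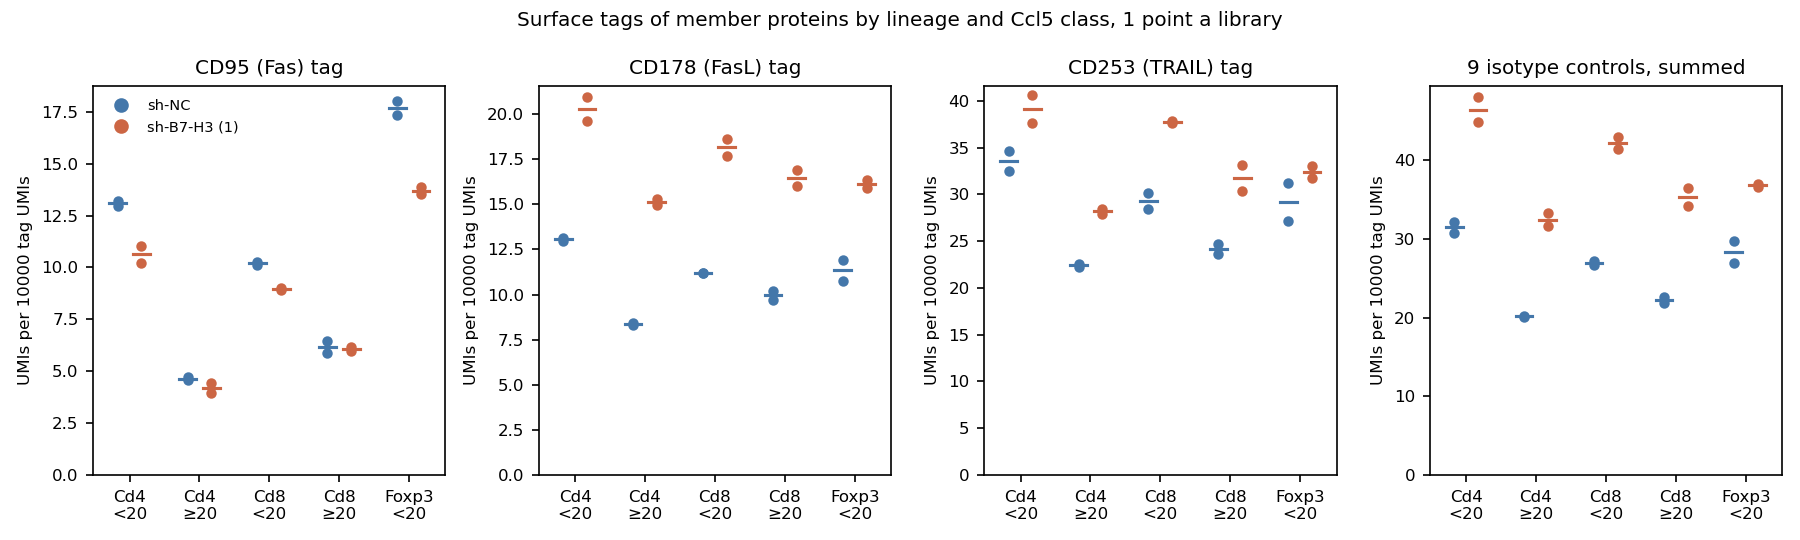
Share of tag UMIs, per 10000, taken by the Fas, Fas ligand and TRAIL tags and by 9 isotype controls summed (vertical axes, linear from 0) in each class, 1 point for each library and a bar at the group mean. The Fas tag is near 18 in sh-NC Foxp3 cells and near 5 in Cd4 cells with at least 20 Ccl5 UMIs, whereas the ligand tags and the isotype controls are all higher in sh-B7-H3 (1) in every class.

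The ligand tags did not follow their RNA. Between Ccl5 classes the Fas ligand tag differed by -0.03 ± 0.05 in Cd4 (adjusted p = 0.672) and 0.06 ± 0.03 in Cd8 cells (adjusted p = 0.168), where Fasl RNA differed by 3.57 and 6.60. The TRAIL tag differed by -0.02 ± 0.03 and -0.05 ± 0.03, neither of which passed. In the knockdown comparisons the Fas ligand tag was higher by 0.19 to 0.34 on the log2 scale and passed in 7 of 8, and the TRAIL tag was lower by trimmed-mean scaling (-0.21 to -0.09) but higher on plain shares (0.04 to 0.39), so no direction is given for it. The 9 isotype controls, which bind no mouse antigen, had log2 fold changes from -0.29 to 0.48 in the same comparisons, and 17 of 72 passed as higher and 2 as lower. The range of the Fas ligand tag thus lay inside that of the isotype controls.

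The other genes of the pathway were taken from a list of 36. In the Ccl5 comparison 12 were higher and 8 lower of 29 tested in Cd4 cells, and 13 higher and 7 lower of 29 in Cd8 cells, where 52.8% and 55.1% of all genes passed. The BH3-only gene Pmaip1 was higher by 2.57 ± 0.40 in Cd4 and 3.10 ± 0.22 in Cd8 cells, and the TNF receptor gene Tnfrsf1b by 2.33 ± 0.20 and 1.87 ± 0.13. Apaf1, Bak1, Xiap and Tnfrsf1a were also higher in both lineages. Lower in both were Tnfrsf25, the receptor DR3 (-4.19 ± 0.27 and -2.60 ± 0.39), the BH3-only gene Bbc3 (-1.85 and -0.55), Lta, Birc3, and the receptor complex genes Cflar (-0.46 and -0.20) and Casp8 (-0.34 and -0.15), although on plain CPM both flipped in Cd8 cells, with Cflar at 63.1 to 65.7 CPM below and 69.8 to 72.2 above the limit and Casp8 at 62.6 to 74.8 below and 73.9 to 84.5 above.

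Between the tumor groups, in whole lineages 14 genes were higher and 5 lower of 33 tested in Cd4 cells, 10 higher and 7 lower of 34 in Cd8 cells, and 1 higher of 26 in Foxp3 cells, beside 44.2%, 39.7% and 2.05% of all genes. Tnfrsf1b (1.70 ± 0.08 and 1.48 ± 0.08) and Pmaip1 (1.97 ± 0.24 and 1.47 ± 0.19) rose in both Cd4 and Cd8 cells, as did Apaf1, Bak1, Xiap and, at levels of only 0.221 to 1.63 CPM, Bcl2l2. Bbc3 (-1.32 and -0.88), Tnfrsf25 (-0.93 and -0.69), Lta (-0.67 and -0.86), Fadd (-0.61 and -0.90) and Birc3 (-0.55 and -0.40) fell in both.

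Within the Ccl5 classes fewer passed. Above the limit none of 27 tested genes passed in Cd4 cells (5 at an unadjusted p under 0.05 with edgeR, and none by DESeq2 of the 8 for which it gave an adjusted p) and 4 of 29 in Cd8 cells, 2 in each direction, and below it 5 of 31 and 4 of 30 passed, where the shares of all genes were 4.76% and 8.23% above and 10.3% and 6.38% below the limit. Tnfrsf1b (1.17 ± 0.15 and 0.97 ± 0.18) was higher and Bbc3 (-0.77 and -0.59) lower below the limit in both lineages. In Foxp3 cells with Ccl5 under 20, where 0.745% of all genes passed, none of 26 did with edgeR (2 at an unadjusted p under 0.05), and DESeq2 gave no adjusted p for these genes.

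Across the 24 sums of 6 classes in 4 libraries, genes whose log2 CPM closely followed each member were, among 4843 genes averaging 20 CPM or more, Chn2, Osgin1 and Dapk2 for Fasl (Pearson r of 0.96, 0.95 and 0.93), Stk17b and AW112010 for Tnfsf10 (0.96 and 0.95), and Ikbke, Kcnn4 and Rnpepl1 for Fas (0.89, 0.87 and 0.87). For Bcl2 they were Cd96, Lgals3bp and Snhg20 (0.98, 0.98 and 0.95), for Mcl1 Itm2c, Xbp1 and Pim1 (0.97, 0.96 and 0.95), and for Bcl2l11 Arsb, Ptpn22 and Plek (0.87, 0.86 and 0.84). Bcl2a1b was followed by Ndfip1, Metrnl and Plaat3 (0.98, 0.97 and 0.97) and Bcl2a1d by Ptms, Prdm1 and Bhlhe40 (0.97 for each). Bcl2a1b and Bcl2a1d had r = 0.95 with each other. The 24 sums share libraries and 4 of them hold 5 to 9 cells, so these values only describe the sums.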

How the data were processed

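UMI counts of 32285 genes and 198 surface tags per barcode were deposited by the authors, who made them with Cell Ranger on mm10 (the submitters' processing notes also name Seurat 4.0.0). One tag without a name was left out. Barcodes called as cells were kept if 200 to 3000 genes were detected and mitochondrial UMIs made up no more than 5%, and 30.7 to 34.4% of called cells per library scored as doublets (resemblance to simulated pairs of cells, Otsu threshold) were removed. Raw UMIs were summed per library, lineage and Ccl5 class and tested with edgeR 4.0.16 (quasi-likelihood F test, TMM, filterByExpr, R 4.3.3), with Benjamini-Hochberg adjustment over all genes or tags tested and passing defined as an adjusted p under 0.05. Standard errors are the fold change divided by the square root of F. Classes with under 10 cells in any library were not tested. The fits were tested on simulated data. DESeq2 1.42.0 served as an alternative. All 8 members are named in every class, and other pathway genes where they passed in the same direction in at least 2 lineages. Values of some other genes are not reported here. The members and gene lists were chosen with earlier results of these data known. Gene positions are from GENCODE vM21 and upstream sequences from RefSeq, both on GRCm38. Totals of 7.92e+07 to 1.33e+08 RNA UMIs per library cover all called cells. The tested sums came from only 2014 to 4599 cells per library. Their depth limits precision for low genes such as Fas and Fasl outside the Ccl5-rich classes.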

Additional observations from a re-analysis of the deposited data

Results flagged for a closer look

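The knockdown effect of 7 member-by-lineage pairs, of 16 tested, differed between cells with at least 20 and under 20 Ccl5 UMIs in the edgeR interaction test, as log2 effect above minus log2 effect below the limit. Over all genes, 4.84% passed this test in Cd4 and 3.61% in Cd8 cells. The pairs of Bcl2a1b and Bcl2a1d are not independent, since the counts of either may include the other. In Cd4 cells the differences were -1.05 for Fasl (adjusted p = 8.84e-05), -1.36 for Bcl2a1d (adjusted p = 9.95e-16), -0.92 for Bcl2a1b (adjusted p = 8.88e-17) and 0.34 for Bcl2 (adjusted p = 0.0110). In Cd8 cells they were -3.04 for Fasl (adjusted p = 3.22e-09), -0.84 for Bcl2a1d (adjusted p = 0.0349) and -0.32 for Bcl2 (adjusted p = 0.000328). The Cd8 value of Fasl rests on 21 sh-NC and 37 sh-B7-H3 (1) UMIs below the limit. Those of Bcl2a1b and Bcl2a1d in Cd4 cells and of Fasl in Cd8 cells passed in every alternative. Bcl2a1d in Cd8 cells was lost under 9 of 17 alternatives (log2 difference from -1.49 to -0.17, highest adjusted p = 0.884), namely without sh-NC replicate 1 or either sh-B7-H3 (1) library, with DESeq2, with no filter on low counts, with no upper gene limit, without cells carrying myeloid, B or NK markers, and with a Ccl5 limit of 10 UMIs or per 10000 UMIs. Bcl2 in Cd4 cells was lost under 7 of 17 (highest adjusted p = 0.832), namely without any 1 of the 4 libraries, with DESeq2, with no Cd8 UMIs allowed and with a Ccl5 limit of 40. Fasl in Cd4 cells was lost under 3 of 17 (highest adjusted p = 0.173), without sh-B7-H3 (1) replicate 2, with DESeq2 and with a Ccl5 limit of 10, and Bcl2 in Cd8 cells under 3 of 17 (highest adjusted p = 0.287), without sh-B7-H3 (1) replicate 1, with DESeq2 and with no filter on low counts.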

How the results depend on the processing

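Of 94 member tests, 50 passed, 37 of them under every alternative that gave a value (up to 17), and no test that passed changed its direction. Among tests that did not pass, 16 passed under some alternative. Without doublet removal, 7 in place of 4 member tests passed in cells with at least 20 Ccl5 UMIs. Over all genes there, 504 in place of 418 passed in Cd4 and 1414 in place of 771 in Cd8 cells. With a Ccl5 limit of 10, 849 in place of 1100 of all genes passed below it in Cd4 and 639 in place of 676 in Cd8 cells. Of the member tests, 4 in place of 8 passed there. With DESeq2, 3 of these 8 passed, 3 did not (adjusted p from 0.0657 to 0.316) and 2 had no adjusted p, and in the comparison of effects between classes 3 of 7 passed (0.0602 to 0.832 for the other 4). Over all genes DESeq2 passed 516 of 10721 in Cd4 and 277 of 3201 in Cd8 cells below the limit. For the difference of effects it passed 197 of 10403 and 121 of 5278. The cause was not tested. Leaving out each library in turn gave 15 to 17 in whole lineages (16 with all), 3 to 4 above the limit, 5 to 9 below it, 14 to 15 between Ccl5 classes (15 with all) and 4 to 6 for the difference of effects, the lowest values of the third and last coming without sh-B7-H3 (1) replicate 2, in the last also without replicate 1. With the replicate number as a replicate block, 16, 4, 9 and 7 tests passed in whole lineages, above and below the limit and for the difference of effects. Deviations of same-numbered libraries correlated between -0.07 and 0.22, the highest in Cd8 cells with at least 20 Ccl5 UMIs. An effect shared by same-numbered libraries is therefore not excluded in that class. Foxp3 cells with at least 20 Ccl5 UMIs were too few for 3 comparisons. In DESeq2, 18 member tests had no adjusted p. Depth limits Fas above and Fasl below the Ccl5 limit.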

Other observations

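Fasl RNA was higher in sh-NC Cd4 than in sh-NC Cd8 cells that had no Ccl5 UMI. In sh-NC libraries Cd4 cells with no Ccl5 UMI had Fasl at 6.95 and 7.40 CPM from 165 UMIs in 2825 cells, and Cd8 cells with none had 0.319 and 0.309 CPM from 9 UMIs in 3103 cells. In free RNA of the same libraries Fasl was at 13.6 and 14.1 CPM. The difference between these lineages was not tested.

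Bcl2 was near 0 in Foxp3 cells with at least 5 Ccl5 UMIs, but not in those with 1 to 4. In sh-NC Foxp3 cells it had 222 UMIs with no Ccl5 UMI (185 CPM, 155 cells), 71 UMIs with 1 to 4 (150 CPM, 68 cells), 1 UMI with 5 to 19 (3.83 CPM, 41 cells) and 1 UMI with 20 to 99 (10.8 CPM, 14 cells). In sh-B7-H3 (1) the counts were 31, 64, 4 and 0 UMIs, in 35, 87, 44 and 14 cells. In Cd8 cells of both groups Bcl2 was higher with 20 to 99 Ccl5 UMIs than with none. These bins of Foxp3 cells were set side by side after their values were seen and were not tested.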
